A study of Mus musculus with 12 samples.

Results

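The genes that differed with loss of myostatin were examined in the triceps brachii muscle of mice that did not run, by comparing 3 inactive myostatin-reduced mice (IM) with 3 inactive wild-type mice (IW). These are 6 of the 12 mice of the series, and all 6 were chosen by their group labels alone. Of 10187 genes in the table of normalized read counts, the 7197 with a mean of at least 10 over these 6 mice were tested, and 2990 fell below that mean. The other 6 mice had running wheels and were wild-type (AW) or myostatin-reduced (AM). They entered the fit for the estimate of the spread between mice, and their own genotype difference is given beside that of the inactive mice.

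All mice were male C57/BL6 animals, and every mouse, controls included, ate chow with 0.025% tamoxifen for 6 weeks from 4 months of age. In IM and AM mice exon 3 of Mstn was floxed and a tamoxifen-dependent Cre recombinase removed it after the muscle had formed. The promoter that drives Cre is not given in the sources used here. IW and AW mice had normal Mstn. AW and AM mice had free access to a wheel for 12 weeks from 6 months of age, and IW and IM mice had none. Each group held 3 mice, so an exact permutation of 3 against 3 could not go below p = 0.10, and calls rest on limma fitted across all genes.

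Myostatin is a secreted member of the transforming growth factor beta family that is made mainly by muscle fibres and limits their growth. It binds activin type II receptors, which with a type I receptor phosphorylate Smad2 and Smad3, and these enter the nucleus with Smad4 and change transcription. Triceps is a predominantly fast muscle, in which glycolytic fibres with few mitochondria lie beside a minority of oxidative and slow fibres.

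The 6 inactive samples held an estimated 9723676 to 11758745 reads. The 10 most abundant genes made up 25.5% to 28.5% of each IW sample and 29.7% to 30.6% of each IM sample. Fibre genes were abundant in every sample. The 12 markers of skeletal muscle fibres summed to 248802 to 283291 normalized reads in IW mice and 302481 to 314555 in IM mice. Their sum was higher in every IM mouse, and 11 of the 12 had a higher mean (50.9% of all genes did). The IW mice differed widely from each other in slow-fibre genes. The slow myosin gene Myh7 had values of 376, 1.29 and 63.1 in IW mice 1, 2 and 3, and of 1.43, 8.68 and 9.02 in IM mice 1, 2 and 3. IW mice 1 and 3 were far above IW mouse 2, in which Myh7 was below every IM mouse. Summed over the slow-fibre genes measured, the 3 IW mice were at 3692, 1113 and 1805 normalized reads and the 3 IM mice at 908.4, 908.2 and 672.1, so that IW mouse 2 stood nearest to the IM mice. Of the 54 called genes named below, 9 changed by less than 2/3 as much without IW mice 1 and 3, and both values are given for each of them.

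Mstn was lower in every IM mouse than in every IW mouse. IW mice had 79.7, 138 and 131 normalized reads and IM mice 18.3, 17.2 and 21.6, and the gene fell by 2.51 on the log2 scale (SE 0.223, limma adjusted p = 0.000143). It spans bases 53118507 to 53124923 of chromosome 1, plus strand (NCBIM37, mm9), and its floxed exon 3 runs from 53123095 to 53124923. Counts were summed over the exons of a gene, so the values left in IM mice do not show which exons they came from.

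Across all genes, 187 had a limma adjusted p-value under 0.05 and are called here, 2.60% of those tested. Of these, 102 were higher in IM mice (1.42%) and 85 lower (1.18%). The changes were mostly small: the median absolute log2 change was 0.51, and 19 genes changed by more than 1, 7 up and 12 down. In all 187 genes the IM and IW values did not overlap, against 26.0% of all genes tested. At an unadjusted p-value under 0.05 there were 1265 genes (17.6%). The number called depended on single mice. Leaving out IW mouse 1 left 30 genes and IW mouse 3 left 51, leaving out IM mouse 1, 2 or 3 left 28, 41 or 34, and leaving out IW mouse 2 left 178. Without both IW mice 1 and 3, 3 genes were called (Mstn, 4832428D23Rik and Lancl1, all on chromosome 1), and in that fit the single remaining IW mouse was assumed to vary like the other groups.

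A group of 22 genes was called in each of the 6 fits that left out 1 inactive mouse, 8 of them higher and 14 lower in IM mice. They are Mstn, 4832428D23Rik, Lancl1, Dkk3, Ddah1, Pak1, Zmynd17, Ankrd23, Pmepa1, Ramp1, Tbc1d1, St3gal5, Mtap1b, Rcan1, Pcca, Magix, Tmem100, Mfsd4, Rnf144b, Actc1, Angel1 and Usp20. This group was singled out after its values were seen.

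**Figure D1:**
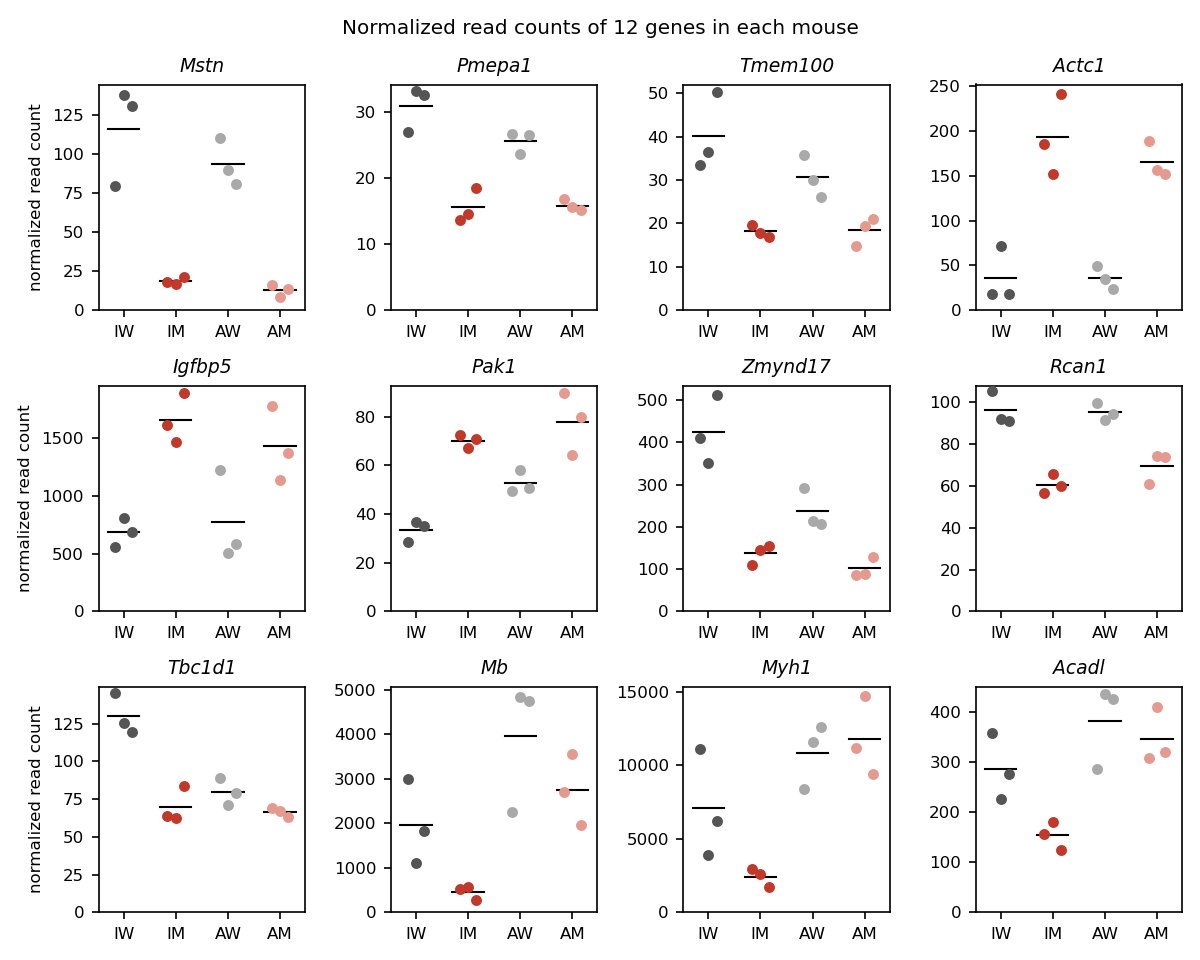
Normalized read counts (y axis, linear, from 0) of 12 genes in each of the 12 mice, by group; each point is 1 mouse and the bar is the group mean. In every panel the 3 IM mice lie on one side of the 3 IW mice, and for Mb and Myh1 the IW mice are spread widely, from 1098 to 2991 and from 3920 to 11089.

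The pathway below myostatin was examined next, from the secreted proteins to the genes that Smad proteins control. Of 11 tested ligands and inhibitors of the family, Mstn fell and Gdf11 rose, and 9 were not called. Gdf11 encodes the closest relative of myostatin, which uses the same receptors. It had values of 5.93, 8.95 and 8.87 in IW mice and 12.5, 13.1 and 18.8 in IM mice, a rise of 0.83 (SE 0.174, limma adjusted p = 0.0323), and this call was kept in 1 of the 6 fits without an inactive mouse. Its mean was under 15 in both groups.

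Among 16 tested receptors and Smad genes, 1 was called (6.25%). The counts of called members here and in the lists that follow stand against 2.60% of all genes tested. Acvr1, a type I receptor of bone morphogenetic proteins, was at 35.3, 32.2 and 35.1 in IW mice and at 25.5, 25.01 and 28.0 in IM mice, and fell by 0.37 (SE 0.0753, limma adjusted p = 0.0285). The type II receptor Acvr2a, which myostatin binds, and the genes of Smad2 and Smad3 were not called, and Acvr2b was below the minimum mean. Acvr2a was 0.42 higher (SE 0.136, limma adjusted p = 0.127) without overlap between groups. The median change over the 16 genes was 0.07, against 0.00 over all genes tested.

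Genes that Smad signalling induces, or that feed back on it, were mostly lower in IM mice. Of 11 tested, 2 fell, none rose and 8 had a lower mean (49.1% of all genes did), with a median change of -0.46. In 6 of the 11 the IM values were all below the IW values, where 12.6% of all genes were. The median was -0.31 without IW mice 1 and 3 and -0.27 without IM mouse 3, and only 1 member had a mean of at least 50, with a change of 0.01. Pmepa1, a transforming growth factor beta target whose product dampens Smad2 and Smad3 signalling, had values of 26.9, 33.1 and 32.5 in IW mice and 13.6, 14.6 and 18.5 in IM mice. It fell by 0.95 (SE 0.115, limma adjusted p = 0.00165). Tmem100, which encodes a membrane protein induced by bone morphogenetic protein signalling, had values of 33.5, 36.4 and 50.2 in IW mice and of 19.7, 17.9 and 17.0 in IM mice. Its fall was 1.08 on the log2 scale (SE 0.161, limma adjusted p = 0.00692). For both genes the lowest IW mouse was well above the highest IM mouse. A few further genes of this list were lower without overlap and did not pass the test. The cell cycle inhibitor Cdkn1b was at -0.31 (adjusted p = 0.114), and the matrix-associated genes Ctgf and Cyr61 were at -0.95 (adjusted p = 0.145) and -0.90 (adjusted p = 0.104). In the other direction, 1 member was higher without overlap, and the highest change in the list was 0.57, which was not called.

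Genes with the largest rises came from several functions. Actc1, the actin of heart and developing skeletal muscle, rose more than any other called gene with a mean of at least 50. It was at 18.3, 71.2 and 18.7 in IW mice and at 186, 152 and 240 in IM mice, and rose by 2.66 (SE 0.412, limma adjusted p = 0.0082). IW mouse 2, the IW mouse with the lowest slow-fibre genes, had the highest Actc1 value of its group and was still below the lowest IM mouse. The rise was 1.40 without IW mice 1 and 3 and was not called (adjusted p = 0.283). Adult skeletal actin, Acta1, was at 29309 to 35113 in IW mice and 33093 to 38677 in IM mice and was not called (0.13, adjusted p = 0.625). No window of 65 bases, the read length, was shared exactly between the Actc1 transcript and any Acta1 or Acta2 transcript of the annotation, so exact matches alone could not move reads from one to the other.

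The 250 bases before the start of Actc1 are shown because it was the gene with the largest rise of those with a mean of at least 50, and those of Zmynd17 and Rcan1 as examples of the 14 genes that fell in every fit that left out an inactive mouse. Both examples were picked after their values were seen. Rcan1 has more than 1 annotated start, and the window of the downstream start is shown. The sequences are from RefSeq (GRCm38.p6) and are written 5′ to 3′ on the strand of the gene, which is the minus strand for all of them. In the first, capitals mark a CArG box, the site of serum response factor. In the others, capitals mark GGAAA or its reverse complement, the core letters of sites for NFAT and for several other factors.
Actc1, chr2:114052876-114053125: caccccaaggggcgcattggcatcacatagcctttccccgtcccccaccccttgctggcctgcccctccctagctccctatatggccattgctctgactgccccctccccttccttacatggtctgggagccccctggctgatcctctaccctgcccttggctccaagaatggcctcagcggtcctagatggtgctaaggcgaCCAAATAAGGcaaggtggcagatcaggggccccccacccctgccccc
Zmynd17, chr14:20496902-20497151: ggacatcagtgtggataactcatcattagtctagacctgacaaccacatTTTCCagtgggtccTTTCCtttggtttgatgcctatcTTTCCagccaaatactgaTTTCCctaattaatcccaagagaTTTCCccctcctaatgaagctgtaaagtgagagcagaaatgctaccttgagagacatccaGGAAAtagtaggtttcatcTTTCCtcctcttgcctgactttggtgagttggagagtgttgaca
Rcan1, chr16:92400079-92400328: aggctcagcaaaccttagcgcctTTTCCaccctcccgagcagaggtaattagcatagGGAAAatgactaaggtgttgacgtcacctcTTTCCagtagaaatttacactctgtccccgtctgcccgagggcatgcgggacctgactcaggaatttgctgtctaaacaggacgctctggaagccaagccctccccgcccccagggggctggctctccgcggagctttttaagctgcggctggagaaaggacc
A CArG box on either strand was found in 1.47% of 32851 promoter windows of this length, and the one before Actc1 begins 47 bases before the annotated start. GGAAA was found at least once in 55.6% of windows, 3 or more times in 6.39% (as in this Rcan1 window) and 7 or more times in 0.00913% (as in the Zmynd17 window). The window before the upstream start of Rcan1, chr16:92466170-92466419, held no GGAAA. The E-box letters CANNTG were in 66.2% of windows and in none of the windows shown, and were found once (CACGTG) before the upstream start of Rcan1. The Smad-binding letters CAGAC, present in 42.2%, were found once before Actc1 and once before each start of Rcan1, and not before Zmynd17. A MEF2 site, present in 2.92%, was in none of them. Letters that match are a description of these windows and do not show that a factor binds there.

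Igfbp5, a secreted binding protein of insulin-like growth factors, had values of 558, 807 and 690 in IW mice and of 1613, 1464 and 1886 in IM mice. It rose by 1.28 (SE 0.272, limma adjusted p = 0.0323). Pak1, a kinase that acts below Rac and Cdc42 on the actin cytoskeleton and takes part in glucose uptake in muscle, had values of 28.6, 36.7 and 35.2 in IW mice and 72.5, 67.0 and 70.7 in IM mice. Its rise of 1.05 (SE 0.121, limma adjusted p = 0.00135) was far larger than the spread within either group. Wnk2, a kinase of the family that regulates ion transport, rose by 0.86 (SE 0.167, adjusted p = 0.0232), from 104, 126 and 158 to 224, 194 and 288. Glul, which encodes glutamine synthetase, rose by 0.74 (SE 0.13, adjusted p = 0.0168). The other genes among the 12 largest rises with a mean of at least 50 were Ppp1r3c, Aimp2, Sort1, Tnfaip2, Gdap1, Plcd4 and Ociad2, with changes between 0.70 and 0.94. Of these 12, only Actc1 and Pak1 were called in each of the 6 fits without an inactive mouse, and Igfbp5, Ppp1r3c, Aimp2, Sort1, Gdap1, Plcd4 and Ociad2 in 1 of them. Aimp2 was at 0.51 and Gdap1 at 0.39 without IW mice 1 and 3, against 0.77 and 0.71 with all mice, and neither was called.

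The largest falls included genes of muscle proteins, enzymes and transporters. Zmynd17, known as Mss51, encodes a muscle protein tied to mitochondrial metabolism, and was at 410, 352 and 513 in IW mice and at 111, 146 and 156 in IM mice. It fell by 1.62 (SE 0.189, limma adjusted p = 0.0014). Ankrd23, a titin-associated ankyrin repeat protein of the sarcomere, fell by 0.95 (SE 0.114, adjusted p = 0.00165), from 2547, 2076 and 2271 to 1152, 1270 and 1145. Ramp1, an accessory subunit of the receptor of calcitonin gene-related peptide, fell by 0.87 (SE 0.111, adjusted p = 0.0024). These genes had little spread within groups, and each was called whichever inactive mouse was left out. Slc38a3, a glutamine transporter, fell by 0.84 (SE 0.152, adjusted p = 0.0171), and Plekhb2 and Pm20d2 by 0.72 and 0.71.

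Some of the strongest differences were in genes of low level. Dkk3, a secreted glycoprotein of the Dickkopf family, was at 34.0, 32.5 and 33.0 in IW mice and 5.48, 7.0 and 10.01 in IM mice, and fell by 2.04 (SE 0.186, adjusted p = 0.000148 in limma). Ddah1, which degrades the nitric oxide synthase inhibitor asymmetric dimethylarginine, was at 33.4, 31.6 and 28.1 in IW mice and 8.33, 7.64 and 5.97 in IM mice. Its fall was 1.95 (SE 0.215, limma adjusted p = 0.000985). In the other direction, 4832428D23Rik, which RefSeq lists as Mettl21e, a gene of the methyltransferase-like family, was at 3.95, 2.95 and 2.71 in IW mice and at 75.2, 83.8 and 58.9 in IM mice, a rise of 4.13 (SE 0.192, limma adjusted p = 1.94e-07). Cdh4, a cadherin, rose by 2.12 (SE 0.452, adjusted p = 0.0323), but its values ranged from 2.25 to 8.95 in IW mice and from 13.8 to 32.5 in IM mice, and without IW mice 1 and 3 it was at 1.17 and not called.

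Slow-fibre genes did not pass the test, although all 13 tested had a lower mean in IM mice and their median change was -1.64. The spread among IW mice was of the size of the difference. Tnnc1, Myl2 and Tnnt1, the slow troponins and the slow light chain, followed Myh7: Tnnc1 was at 56.8, 0.74 and 10.4 in IW mice and at 0.32, 2.18 and 2.34 in IM mice. Their limma adjusted p-values were 0.51, 0.527 and 0.396, and that of Myh7 was 0.527. Fhl1, which scaffolds sarcomere proteins, came nearest to a call at -1.30 (SE 0.328, adjusted p = 0.0583). Without IW mice 1 and 3 the median over the list was -0.18, with 9 of 13 genes lower. Among the 5 members below the minimum mean, sarcolipin (Sln), which inhibits the calcium pump of the sarcoplasmic reticulum, rose by 1.80 in a fit without that minimum (limma adjusted p = 0.00189).

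Some abundant genes of fibres other than type IIb did pass the test. Mb, the oxygen-storing myoglobin, was at 2991, 1098 and 1825 in IW mice and at 531, 565 and 284 in IM mice. It fell by 2.04 (SE 0.388, limma adjusted p = 0.0209). Myh1, the myosin of type IIx fibres, was at 11089, 3920 and 6200 in IW mice and 2929, 2643 and 1727 in IM mice. Its fall was 1.44 (SE 0.321, adjusted p = 0.0375). Mybpc1, the slow myosin-binding protein C, fell by 1.14 (SE 0.262, adjusted p = 0.0408), from 3285, 1557 and 2693 to 1118, 1277 and 899. In each of them IW mouse 1 was highest and IW mouse 2 lowest of the IW mice, the same order as for Myh7, and each was called in 1 of the 6 fits without an inactive mouse. The changes without IW mice 1 and 3 were -1.32 for Mb, -0.72 for Myh1 and -0.52 for Mybpc1, and none of these was called (limma adjusted p = 0.63, 0.73 and 0.819). Myh2 of type IIa fibres, at 2515, 627 and 968 in IW mice and 354, 557 and 89.9 in IM mice, was not called (-2.14, SE 0.757, adjusted p = 0.157). Myh4 of type IIb fibres was at 73727, 96845 and 82555 in IW mice and at 106795, 104829 and 106207 in IM mice. It was 0.34 higher without overlap, and was not called (SE 0.184, adjusted p = 0.369).

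The myosin values carry a limit of the counting, because the Myh1 transcript shares 14.99% of its 65-base windows with Myh2 and 6.80% with Myh4. With a slow-fibre covariate in the fit (the mean of Myh7, Tnnc1, Myl2 and Tnnt1), Mb, Myh1 and Mybpc1 kept falls of 1.59 (adjusted p = 0.00851), 1.10 (adjusted p = 0.0349) and 0.85 (adjusted p = 0.0389). Among 18 tested fast-fibre genes, which include Myh1, 1 fell and none rose, and 14 had a higher mean in IM mice, with a median of 0.12. Under quantile normalization that median was 0.00. Myh4 had the highest value in every inactive mouse, so its change under that scaling is 0 by construction and is not a measurement.

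Genes of oxidative phosphorylation showed many small differences in one direction. Each of the 74 tested nuclear genes of oxidative phosphorylation had a lower mean in IM mice, with a median of -0.20 and a range of -0.37 to -0.02, whereas 49.1% of all genes tested were lower. In 54 of the 74 all IM mice were below all IW mice, against 12.6% of all genes. None was called, where 2.60% of all genes were, and 1 to 4 were called in 7 of the 25 other settings, with the highest count under sample weights. At an unadjusted p-value under 0.05, 47 were lower and none higher, against 8.68% and 8.89% of all genes, and the smallest adjusted p-value was 0.0629. These genes are expressed together in mitochondria-rich fibres, so they are not independent observations.

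All 5 complexes of the respiratory chain had a lower median. Median changes were -0.17 over 35 genes of complex I, -0.22 over 4 of complex II, -0.21 over 9 of complex III, -0.20 over 12 of complex IV and -0.21 over 13 of complex V. Ndufb6, a complex I subunit, was at 97.2, 94.8 and 103 in IW mice and at 82.7, 74.6 and 76.0 in IM mice (-0.33, SE 0.0859, limma adjusted p = 0.0629). Atp5g3, a subunit of the membrane ring of the ATP synthase, was at 550, 470 and 517 in IW mice and 412, 410 and 376 in IM mice (-0.36, SE 0.0939, adjusted p = 0.0686). In both genes IW mouse 2 was the lowest of its group, though still above every IM mouse. Without IW mice 1 and 3, 71 of the 74 genes were lower and the median was -0.13. With the slow-fibre covariate all 74 were lower, with a median of -0.16. The mean level of the list separated the groups, at 0.17, 0.02 and 0.11 in IW mice and -0.03, -0.11 and -0.16 in IM mice, as log2 deviations from the mean of the 6 inactive mice.

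Of the 13 messages encoded in the mitochondrial genome, 9 had a lower mean, and the median was -0.13. The IM values were all below the IW values in 2 of the 13, a share near the 12.6% of all genes, and none was called. The median was -0.36 without IW mice 1 and 3, with 12 of 13 lower. Tricarboxylic acid cycle genes were lower in 21 of 22 cases, with 16 lower without overlap, none called and a median of -0.19, which was -0.11 without IW mice 1 and 3. The 4 succinate dehydrogenase genes are members of both lists, and each was lower without overlap. The exception was Pcx, pyruvate carboxylase, which was at 103, 153 and 146 in IW mice and at 180, 172 and 193 in IM mice (0.45, SE 0.135, adjusted p = 0.104).

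Genes of fatty acid uptake and oxidation had a lower mean in 29 of 31 cases, with a median of -0.28, and 1 of them was called. Acadl, the long-chain acyl-CoA dehydrogenase, was at 358, 226 and 276 in IW mice and at 157, 180 and 125 in IM mice, and fell by 0.88 (SE 0.198, limma adjusted p = 0.0382). Its locus is on chromosome 1, 13.8 Mb from Mstn. The cytosolic fatty acid carrier Fabp3 was at 128, 63.6 and 81.0 in IW mice and 50.8, 58.2 and 40.5 in IM mice and did not pass the test (-0.81, adjusted p = 0.142). Without IW mice 1 and 3 the median of this list was -0.09, with 25 of 31 genes lower, and Acadl was at -0.57 and not called (adjusted p = 0.736).

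Glycolysis and glycogen genes had mostly higher means in IM mice. Of 31 tested, 3 rose and none fell, 25 had a higher mean, and in 18 all IM mice were above all IW mice, against 13.4% of all genes. In 4 all IM mice were below all IW mice, against 12.6% of all genes. The median change was 0.19. Ppp1r3c, which targets protein phosphatase 1 to glycogen, was at 396, 682 and 482 in IW mice and at 1123, 988 and 825 in IM mice and rose by 0.94 (SE 0.217, limma adjusted p = 0.0411). Pfkfb4, which makes the activator of phosphofructokinase, rose by 0.51 (SE 0.11, adjusted p = 0.0323). The lowest value in the list was that of Ldhb, the lactate dehydrogenase subunit of oxidative muscle, at -1.44 (adjusted p = 0.144). Ppp1r3c and Pfkfb4 were each called in 1 of the 6 fits without an inactive mouse. Without IW mice 1 and 3 the median was 0.13, with 8 of 31 genes lower, and Ppp1r3c was at 0.51 and not called (adjusted p = 0.795).

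Of the genes that sense or move fuel, Tbc1d1 fell by 0.89 (SE 0.116, limma adjusted p = 0.00268). It encodes a Rab-regulating protein that is phosphorylated by AMP-activated kinase and Akt and restrains glucose transporter traffic, and it was at 145, 126 and 120 in IW mice and 64.0, 62.7 and 83.5 in IM mice. Prkab1, a regulatory subunit of AMP-activated kinase, rose by 0.59 (SE 0.122, adjusted p = 0.0323) at a low level, with group means of 8.30 and 12.9. It was called in 15 of the other settings that tested it and not called in 9. The other 16 of the 18 tested genes of this group were not called. No gene was called among 15 mitochondrial regulators, which include the PGC-1 and estrogen-related receptor genes, and their median was -0.05. Esrrg was the nearest, at -0.94 (adjusted p = 0.145).

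**Figure D2:**
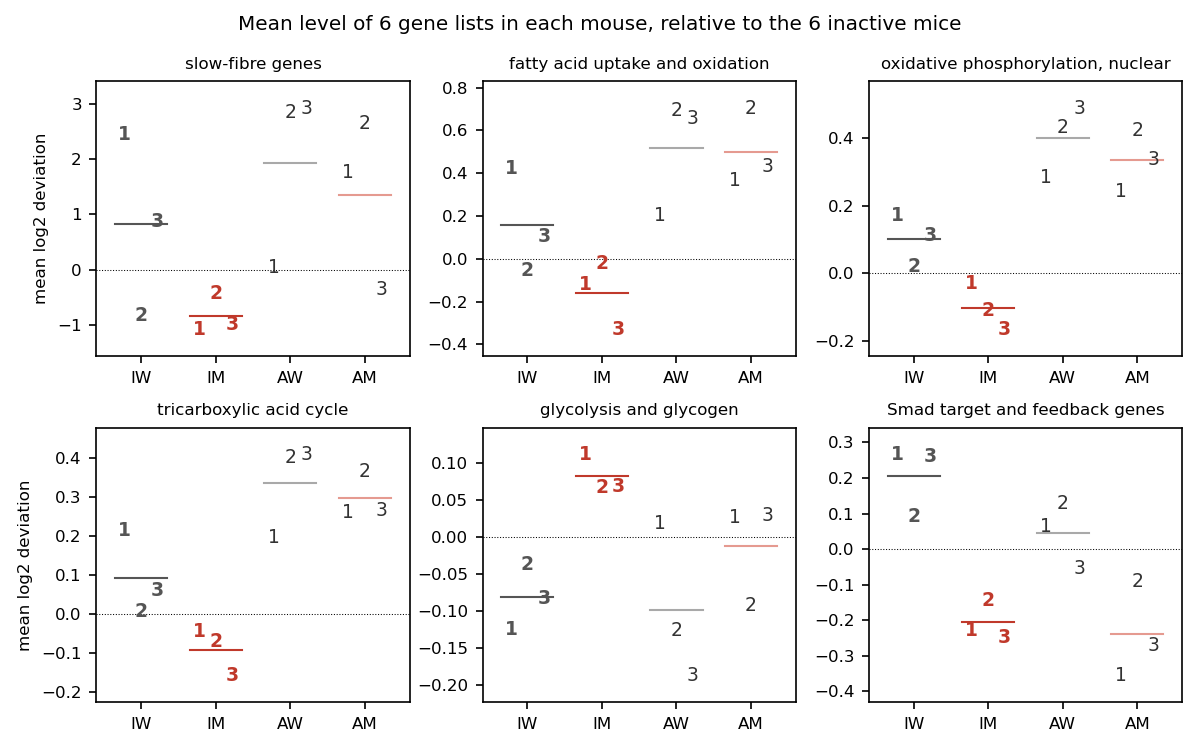
Mean level of 6 gene lists in each mouse (y axis, mean log2 deviation of the list's genes from their mean over the 6 inactive mice); each digit is the mouse with that number in its group and lines are group means. In inactive mice the oxidative phosphorylation, tricarboxylic acid cycle, glycolysis and Smad target lists separate IM from IW, whereas for the slow-fibre genes IW mouse 2, at -0.82, lies among the IM mice.

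Genes of growth and protein turnover were called at shares of 0 to 6.25% in each list, against 2.60% of all genes. Of 32 tested genes of insulin-like growth factor, Akt and mTOR signalling, 2 rose, Igfbp5 and Ddit4l, and none fell. Ddit4l, an inhibitor of mTOR complex 1, was at 373, 355 and 364 in IW mice and at 536, 521 and 544 in IM mice (0.55, SE 0.126, limma adjusted p = 0.0407). Ribosomal protein genes had a lower mean in 36 of 42 cases with none called and a median of -0.09. Among 36 translation factors Eif3c rose by 0.26 (SE 0.0571, adjusted p = 0.0359). No gene was called among 34 proteasome and 24 autophagy genes, with medians of 0.04 and -0.02. Of 19 atrophy ligases and FoxO genes, Foxo4 fell by 0.29 (SE 0.0611, adjusted p = 0.0323) and the other 18 were not called. The calls of Eif3c, Ddit4l and Foxo4 were lost in 12, 11 and 9 of the 25 other settings.

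Among 10 genes of calcineurin signalling, the calcium-dependent phosphatase pathway that acts through NFAT, Rcan1 fell and the others were not called. Rcan1, a feedback inhibitor of calcineurin that NFAT itself induces, was at 106, 92.1 and 91.2 in IW mice and 56.5, 65.5 and 59.7 in IM mice. It fell by 0.66 (SE 0.0915, limma adjusted p = 0.00423). No tested calcineurin subunit or NFAT gene was called, and Nfatc4 was below the minimum mean. None was called among 25 genes of calcium release and reuptake, whose median was 0.04. Of 20 genes of membrane excitability, Wnk2 rose and the potassium channel Kcna7 fell by 0.43 (SE 0.079, adjusted p = 0.0179). Chrnb1, the beta subunit of the acetylcholine receptor at the neuromuscular junction, fell by 0.43 (SE 0.0853, adjusted p = 0.0264), 1 call among 10 tested.

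The remaining lists held 0 to 2 calls each. The immediate-early gene Btg2 fell by 0.95 (SE 0.201, limma adjusted p = 0.0323), 1 of 14 tested, and was not called in 8 other settings. Of 15 glucocorticoid-responsive genes Glul and Gadd45a rose, the latter by 0.59 (SE 0.139, adjusted p = 0.0452), a call lost in 13 other settings. The heat shock gene Dnajb4 fell by 0.40 (SE 0.0717, adjusted p = 0.0171), 1 of 21. Lists without a call were the myogenic regulators (19 tested), circadian clock (18), collagens and matrix (32) and creatine kinase with nucleotide buffering (12). In the first of these Vgll2, a muscle cofactor of TEAD transcription factors, was at 47.4, 33.5 and 47.5 in IW mice and 16.6, 17.5 and 23.1 in IM mice (-1.12, SE 0.302, adjusted p = 0.0743).

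Markers of other cells in the tissue were compared as well. Of 12 tested endothelial markers 11 had a lower mean in IM mice and none was called. Their median was -0.26 (-0.05 without IW mice 1 and 3), and their summed level was 463.75 to 630.92 in IW mice and 430.67 to 445.41 in IM mice. In active mice 11 of the 12 had a higher mean in AM than AW mice, with a median of 0.18. Vegfa, the angiogenic growth factor that muscle fibres secrete, fell by 0.57 (SE 0.133, limma adjusted p = 0.0433), from 328, 262 and 280 to 223, 203 and 164, and was not called in 14 of the 25 other settings of the fit. All 7 tested macrophage and immune markers had a higher mean, with a median of 0.34 (0.09 without IW mice 1 and 3) and none called. Their sums overlapped (144.59 to 169.07 in IW mice and 156.59 to 223.05 in IM mice). In active mice 5 of the 7 had a lower mean in AM than AW mice, with a median of -0.19. Fibroblast markers had a median of 0.04, with 9 tested. Smooth muscle and pericyte markers had a median of -0.18 over 8 genes, and 7 of the 8 had a lower mean. Their summed level was nevertheless higher in every IM mouse, at 5450 to 6140 against 4664 to 5286 in IW mice. Adipocyte markers had a median of 0.08 over 4 genes, 2 higher and 2 lower. Their sum was also higher in every IM mouse, at 4199 to 4587 against 2735 to 4005. A sum follows its most abundant members, and the mean log2 level of both lists overlapped between the groups. The medians of satellite cell and Schwann cell markers were -0.20 and -0.58, with 2 tested in each. None of these markers was called, and no erythroid marker passed the minimum. In bulk tissue, fewer cells of a type and less RNA per cell cannot be told apart, and the part of these differences in the other results was not tested.

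The IM genotype also differed around the targeted locus. Within 25 Mb of Mstn on chromosome 1, 11 of 131 tested genes were called (8.40%, against 2.49% elsewhere), 4 higher and 7 lower. These counts include Mstn, and without it 10 of 130 were called (7.69%), 4 higher and 6 lower. They included 4832428D23Rik at 8.84 Mb, Ccnyl1 at 11.6 Mb, Lancl1 at 13.9 Mb, Ankrd23 at 16.5 Mb, Plekhb2 at 18.2 Mb, Igfbp5 at 19.8 Mb and Plcd4 at 21.5 Mb from Mstn. Lancl1, which encodes a glutathione-binding protein, had values of 45.9, 51.2 and 48.3 in IW mice and 17.7, 21.6 and 20.2 in IM mice and fell by 1.25 (SE 0.0993, limma adjusted p = 5.85e-05). Linked chromosome 1 sequence that came with the floxed allele and a response to myostatin cannot be told apart for these genes in this design.

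The active mice gave the same genotype contrast in 6 other animals. There 15 genes were called (0.208% of those tested) and 897 passed an unadjusted p-value of 0.05 (12.5%). Of the 187 genes called in inactive mice, 177 had a change of the same sign in active mice, as did 64.5% of all genes tested, and 117 of these came with an unadjusted p-value under 0.05, where 10.9% of all genes had both. None passed it in the opposite direction. The median absolute change of the 187 was 0.51 in inactive and 0.26 in active mice, and since they were chosen for their change in inactive mice the first value is raised by that choice. All 22 genes that were called whichever inactive mouse was left out passed an unadjusted p-value of 0.05 in active mice. Both contrasts used the same estimate of the spread between mice, so they are not fully independent.

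Values of single genes show where the contrasts were alike and where they were apart. Dkk3 fell by 2.32 in active mice and by 2.04 in inactive mice. In active and inactive mice, Zmynd17 fell by 1.22 and 1.62 and Pmepa1 by 0.66 and 0.95. Actc1 was at 2.21 and Rcan1 at -0.45 in active mice, where neither was called (adjusted p = 0.0596 and 0.1), against 2.66 and -0.66 in inactive mice. Myh1 in contrast was 0.12 higher in AM than AW mice, Mybpc1 0.01 higher, Slc38a3 0.05 lower and Tbc1d1 0.25 lower. The median of the oxidative phosphorylation list was -0.06 in active mice, with 4 of 74 genes not overlapping, against 15.4% of all genes. There 68 of the 74 had a lower mean in AM than AW mice, as did 3795 of all 7197 genes tested. The difference between the contrasts was tested by the interaction, in which no gene was called. There 300 genes (4.17%) had an unadjusted limma p-value under 0.05, and the smallest adjusted p-value was 0.888. The interaction p-values were 0.00463 for Myh1, 0.00193 for Tbc1d1 and 0.00295 for Slc38a3 before adjustment.

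**Figure D3:**
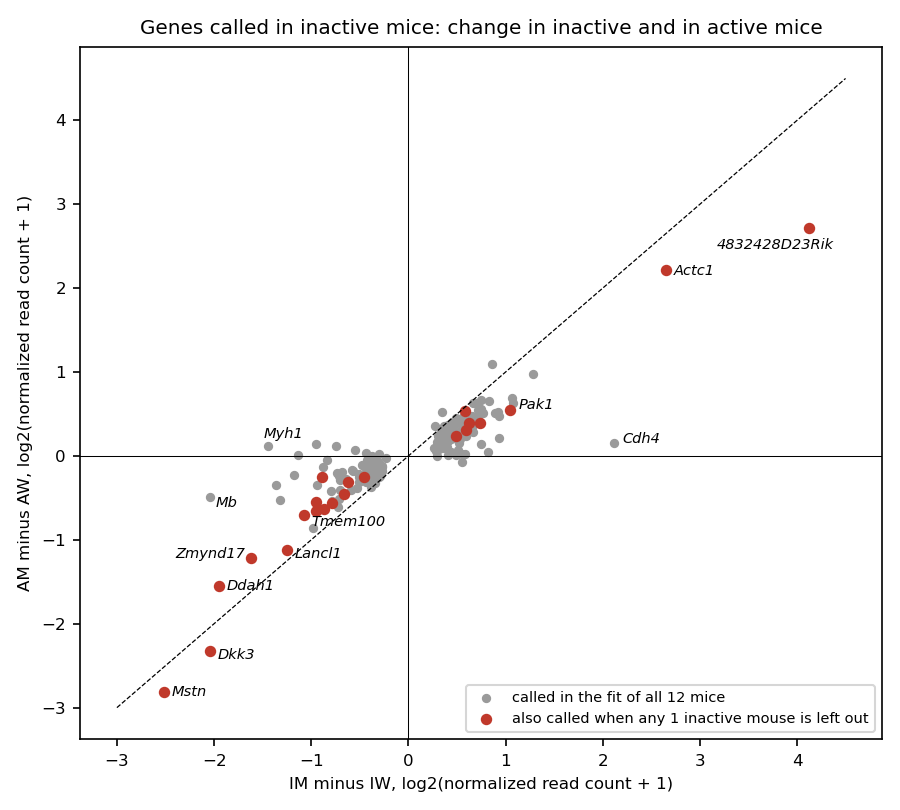
Genes called in inactive mice, by their change in inactive mice (x axis, IM minus IW) and in active mice (y axis, AM minus AW), both on the log2 scale; red points are the 22 genes called whichever inactive mouse was left out, and the dashed line marks equal change. The red points lie on the same side of 0 on both axes, whereas Myh1 at 0.12 and Cdh4 at 0.16 lie near 0 on the y axis.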

How the data were processed

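RNA-seq was performed on triceps brachii of 12 mice in 4 groups of 3 (IW, IM, AW, AM), taken from the sample titles. The authors mapped single-end reads of 65 bases with CASAVA (version not given in the sources used here) to mm9 and counted them in RefSeq exons, per gene and not per length. The deposited values are a signal: normalized read counts, scaled by the authors to an equal trimmed mean of the nuclear genes. Use of strand was not given. At a tolerance of 0.0055, 72.5% to 73.9% of values were whole multiples of the worth of 1 read, so no count test was run. A floor of 3 reads was worth 0.231 to 0.316 normalized reads, which covers counting error only.

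Genes whose mean over the 6 inactive mice was 10 or more were tested with limma 3.58.1 (R 4.3.3) on log2(value + 1), which understates changes of low genes. Group means were fitted to all 12 mice (8 residual degrees of freedom), with trended eBayes, two-sided p-values and Benjamini-Hochberg adjustment over the 7197 genes. A gene was called under 0.05, and a called change is written as a rise or fall. The fit was tested on simulated data.

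Named were Mstn, the 12 largest rises and 12 largest falls with a mean of at least 50 and no overlap, up to 6 called members of each list (or 3 with the smallest p-values), up to 8 called genes within 25 Mb of Mstn, the slow-fibre measures, and the 3 largest changes under a mean of 50. Members and lists were chosen with earlier results of these data known. Other genes were named after their values were seen, and some genes are not reported here. A list is described by its counts and its median change. Positions are from GENCODE vM1 (NCBIM37), matched by symbol for 10043 genes and not for 144. Promoters are from RefSeq. Alternatives were other minimum means, pseudocounts (0.5 and 4), scalings, samples and covariates, a replicate block, and leaving out each mouse. Titles number the mice of every group from 1 to 3, and nothing in them says that mice with a number in common were paired.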

Additional observations from a re-analysis of the deposited data

How the results depend on the processing

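The count of 187 genes called between IM and IW mice was 28 to 228 when each of the 12 mice was left out, with 109 without AW mouse 3. It was 116 with the mouse number as a replicate block, 357 with sample weights and 124 with the slow-fibre covariate, and 45 with that covariate in the 6 inactive mice alone. Without IW mice 1 and 3 it was 3. The latter pair of settings was chosen after seeing the data. All 187 genes were among the 357, and 107 of them among the 124. Correlations of same-numbered IW and IM mice were 0.037, -0.263 and 0.215, and those of unlike-numbered mice ranged from -0.274 to 0.310. These values cannot decide whether mice with a number in common were paired or shared a batch. The active count of 15 was 4 to 18 when each mouse was left out, 7 at a mean of at least 50, 9 with the replicate block and 26 with the slow-fibre covariate. The interaction count of 0 was 0 to 1 when each mouse was left out.

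Mstn stayed called under every setting. None of the other 53 called genes named above changed sign in any of the 25 settings that tested it, with 1029 of the results still called and 276 not. Genes with a mean under 50 were not tested at the minimum mean of 50. Some genes named as not called were called elsewhere: Fhl1, Ndufb6 and Vgll2 in 5 settings each, Atp5g3 in 3, Acvr2a in 2 and Cdkn1b, Ctgf and Cyr61 in 1 each. Slow-fibre genes changed sign: Myh7 was at 0.20, Myl2 at 0.14 and Tnnc1 at 0.069 with the slow-fibre covariate, and Myh7 at 0.30 and Myl2 at 0.22 with it in the inactive mice alone. Without IW mice 1 and 3, Myh7 was at 1.43, Myl2 at 1.14, Tnnc1 at 0.47 and Tnnt1 at 0.33. Myh7, Myl2 and Tnnc1 are themselves part of the covariate. The causes of the other shifts were not tested. Of 38 list medians, 15 changed sign under at least 1 setting, and 29 kept it without IW mice 1 and 3. How detection depends on depth was not tested.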

Other observations

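Genes below the mean of 10 were left out of the comparison above, and a fit without that minimum called 30 of the 2990, 20 higher and 10 lower in IM mice. The same fit called 195 of all 10187 genes, so these low genes were called less often than the rest. Sarcolipin (Sln), the slow-fibre list member named above, was at 0.63, 2.03 and 0.94 normalized reads in IW mice and at 6.43, 5.18 and 7.72 in IM mice. It rose by 1.80 (SE 0.225, limma adjusted p = 0.00189), and its change in active mice was 1.09. Smad7, the inhibitory Smad that Smad signalling induces, was at 10.2, 10.2 and 10.8 in IW mice and at 6.72, 4.37 and 5.88 in IM mice, and fell by 0.79 (SE 0.164, limma adjusted p = 0.0324). In active mice the change of Smad7 was -0.25.

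Further genes among the 30 are given as examples. Atf3, a stress-induced transcription factor, fell by 1.19 (SE 0.271, limma adjusted p = 0.0416) and the heat shock gene Hspa1a by 0.81 (SE 0.172, limma adjusted p = 0.0332). Aldh18a1, the first enzyme of proline synthesis from glutamate, rose by 0.61 (SE 0.123, limma adjusted p = 0.0282). The muscle-expressed cytokine gene Il15 rose by 0.72 (SE 0.149, limma adjusted p = 0.0314). All of these were named after their values were seen, and fewer reads lie behind their values than behind those of the tested genes.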
